A study of Sus scrofa with 8 samples.

Results

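The ERBB family holds 4 receptors of the cell surface, EGFR, ERBB2, ERBB3 and ERBB4, and the EGF-like ligands that bind them. A bound receptor pairs with a like or unlike family member, and the pair signals through the RAS-ERK and PI3K-AKT pathways. ERBB2 has no known ligand of its own and ERBB3 has little kinase activity, so that each of them works through a partner, and the neuregulins act through ERBB3 and ERBB4. In skeletal muscle, neuregulin signalling is known for its place at the contact of nerve and muscle fibre and in the muscle spindle. Expression of the 4 receptors and of 4 ligands, NRG1, HBEGF, EREG and AREG, is described here, which is 8 genes of the 25285 in the deposited table.

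The members were chosen by gene symbol, with their difference between cell states in view, and ERBB3 was picked because it was much higher in differentiated cells. Of the 8 genes, 6 carry their symbol in the table. ERBB3 and ERBB4 carry none there and were found by their Ensembl identifiers. Because the choice used the difference between the states, the members' levels in the 2 states are given as a description without a test. Tests are kept for the sexes and for other genes of the pathway. The lists of those other genes were also chosen with earlier results of these data known, which limits their tests between the states. The tests come from limma, a linear model fitted to all genes that averaged at least 1 FPKM, and a gene is called, and said to have risen or fallen, at a Benjamini-Hochberg adjusted p under 0.05.

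RNA was sequenced from primary cells of pig skeletal muscle grown in culture, strain LYD as labelled, which the protocol calls MuSCs. The groups were differentiated cells of females and of males and undifferentiated cells of females and of males, with 2 libraries each, so that each state had 4 libraries. The labels name no age, culture medium or length of culture, and they do not say whether the libraries of a group came from separate animals. Values are FPKM, a fragment count divided by transcript length and by the size of the library, so that genes can be set side by side per length.

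The libraries matched their labelled state. Myogenin (MYOG), a factor that starts muscle differentiation, was at 791 to 1519 FPKM in differentiated and at 40.5 to 130 FPKM in undifferentiated libraries. The 6 muscle markers found in the table summed to 9619 to 13758 FPKM in differentiated and 420 to 737 FPKM in undifferentiated libraries, and MYH3 and ACTA1 carried most of the differentiated sum. Of these 6, MYOD1, the factor of committed myoblasts, fell to a mean of 94.8 FPKM in differentiated libraries, against 184 FPKM in undifferentiated ones (limma adjusted p = 0.00239). Depth in reads is unknown, and the relative depth estimated from low values, with the deepest library at 1, was 0.443 to 0.74 in differentiated and 0.745 to 1 in undifferentiated libraries. One library stood apart, differentiated male replicate 1, in which 9 cell cycle genes summed to 125 FPKM against at most 54.1 FPKM in the other differentiated libraries.

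ERBB3 (ENSSSCG00000020725) was the receptor that differed most between the states. It was at 65.1 and 69.6 FPKM in differentiated females and 59.5 and 65.1 FPKM in differentiated males, against 1.01 and 1.53 FPKM in undifferentiated females and 0.547 and 0.741 FPKM in undifferentiated males. All differentiated libraries lay far above all undifferentiated ones. The differentiated mean was 64.8 ± 4.14 FPKM and the undifferentiated mean 0.957 ± 0.427 FPKM (SD, n = 4 libraries each), a ratio of 67.7. On the scale of log2(FPKM + 1), which understates the change of low genes, the difference was 5.09 ± 0.114 (SE). The mean of ERBB3 lay above that of 88.9% of the 12963 tested genes in differentiated cells and above 6.82% of them in undifferentiated cells. In the differentiated library that stood apart ERBB3 had its lowest differentiated value, and the log2 difference was 5.13 without that library. In bulk samples such as these, more cells that make a transcript and more transcript per cell cannot be told apart.

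ERBB2, the partner that ERBB3 prefers, was also higher in differentiated cells. Its row, ENSSSCG00000017497, lies on the minus strand of chromosome 12 at 23049118 to 23069930 of Sscrofa10.2. Its levels were 53.5 and 55.0 FPKM in differentiated females and 38.7 and 38.3 FPKM in differentiated males, against 14.8 and 12.6 FPKM in undifferentiated females and 11.3 and 13.3 FPKM in undifferentiated males. The states did not overlap. The differentiated mean was 46.4 ± 9.13 FPKM and the undifferentiated mean 13.0 ± 1.48 FPKM (SD, n = 4 each), a ratio of 3.57 and a log2 difference of 1.75 ± 0.0944 (SE). The 2 differentiated female libraries were above the 2 differentiated male ones.

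ERBB4, the neuregulin receptor with a kinase of its own (ENSSSCG00000016160, minus strand of chromosome 15, 126092555 to 126283983), was at 24.4 and 20.05 FPKM in differentiated females and 13.4 and 16.3 FPKM in differentiated males. In undifferentiated cells ERBB4 was at 5.46 and 3.34 FPKM in females and at 2.78 and 2.72 FPKM in males. Here too all differentiated libraries were the higher ones. The differentiated mean was 18.5 ± 4.76 FPKM and the undifferentiated mean 3.57 ± 1.29 FPKM (SD, n = 4 each), a ratio of 5.18 and a log2 difference of 2.10 ± 0.161 (SE).

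EGFR, the receptor of EGF, HB-EGF, amphiregulin and epiregulin, was the member that went the other way. It was at 32.5 and 25.3 FPKM in differentiated females and 27.6 and 33.2 FPKM in differentiated males, against 74.6 and 79.7 FPKM in undifferentiated females and 66.2 and 94.2 FPKM in undifferentiated males. Every differentiated library was below every undifferentiated one. The differentiated mean was 29.7 ± 3.83 FPKM and the undifferentiated mean 78.7 ± 11.8 FPKM (SD, n = 4 each), a ratio of 0.377 and a log2 difference of -1.38 ± 0.152 (SE). The EGFR row (ENSSSCG00000022126) lies on the scaffold JH118990.1, plus strand, at 88290 to 126181 of Sscrofa10.2.

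**Figure D1:**
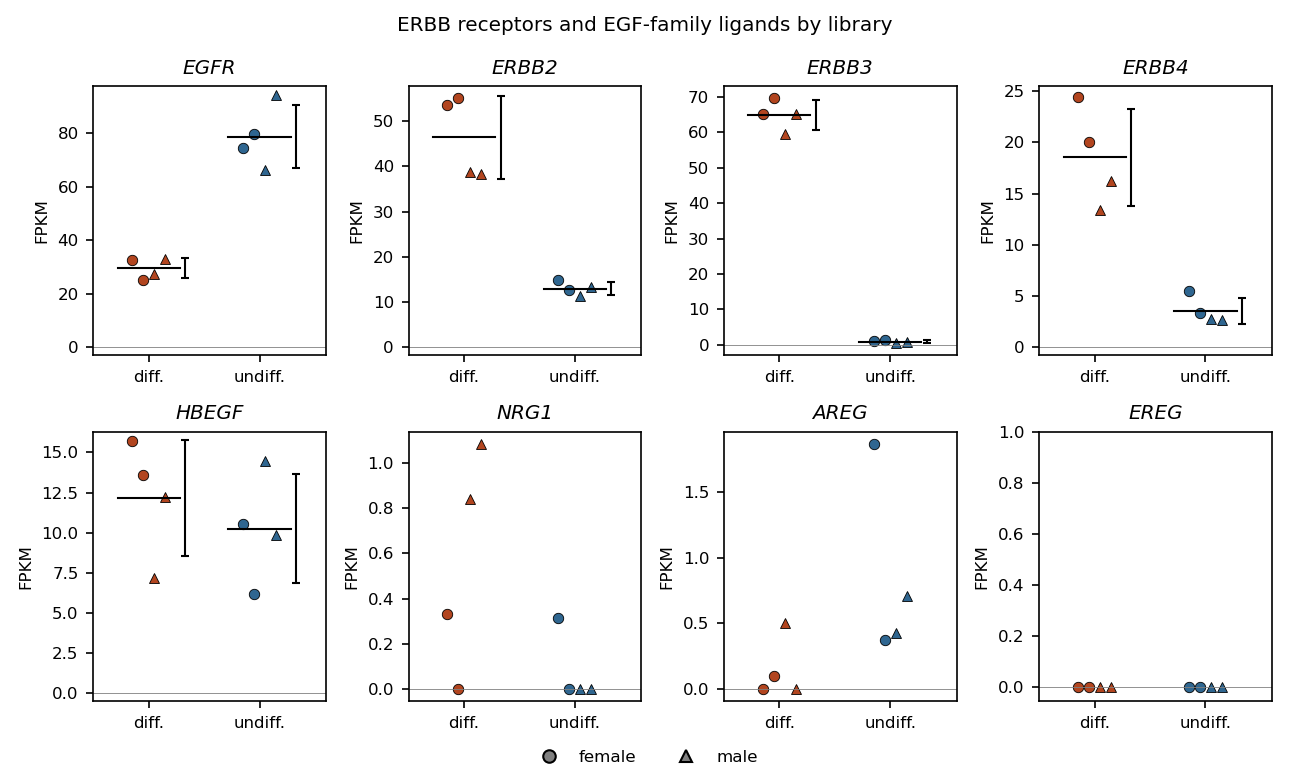
FPKM of the 8 genes in each library, differentiated (diff.) at left and undifferentiated (undiff.) at right in each panel. Circles are female and triangles male libraries, horizontal lines are means and vertical bars the SD of 4 libraries, both left out for NRG1, AREG and EREG, which are listed at 0 in some or all libraries. ERBB2, ERBB3 and ERBB4 lie higher and EGFR lower in every differentiated library, while the values of HBEGF overlap.

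The make-up of the receptor pool differed between the states. The 4 receptors together came to 159 ± 16.6 FPKM in differentiated and 96.2 ± 12.3 FPKM in undifferentiated libraries (SD, n = 4 each). EGFR made up 14.9% to 21.7% of that sum in differentiated and 77.8% to 84.9% in undifferentiated libraries. ERBB3 made up 40.8% ± 2.62 in differentiated and 0.993% ± 0.428 in undifferentiated libraries (SD, n = 4 each), a difference of 39.8 percentage points. The share of ERBB2 was 28.9% ± 3.19 in differentiated and 13.6% ± 1.5 in undifferentiated cells, and that of ERBB4 was 11.5% ± 1.83 in differentiated and 3.76% ± 1.38 in undifferentiated cells (SD, n = 4 each). For each FPKM of ERBB2 there were 1.22 to 1.70 FPKM of ERBB3 in differentiated libraries, against 0.0486 to 0.121 FPKM in undifferentiated ones. The share, the ratio and the rank of ERBB3 rest on the length and reads of a long row that holds other genes, described with its place in the genome. These shares describe transcripts and say nothing of protein at the cell surface.

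**Figure D2:**
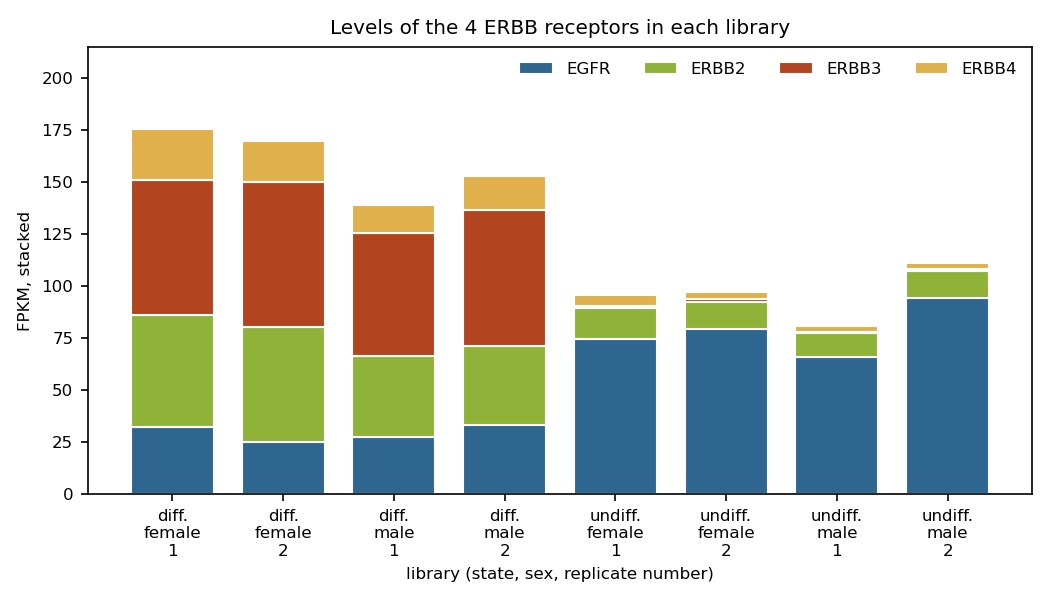
Stacked FPKM of EGFR, ERBB2, ERBB3 and ERBB4 in each library, with the differentiated libraries at left. EGFR is the largest part of each undifferentiated bar, at 77.8% or more, and ERBB3 is the largest part of each differentiated bar.

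The order of levels differed between the states. In differentiated cells it was ERBB3, ERBB2, EGFR, ERBB4 and HBEGF, and of these neighbours only ERBB4 and HBEGF overlapped in their ranges over libraries. In undifferentiated cells it was EGFR, ERBB2, HBEGF, ERBB4, ERBB3 and AREG, where ERBB2 overlapped with HBEGF and ERBB3 with AREG. NRG1 and EREG came last in undifferentiated cells, and NRG1, AREG and EREG in differentiated cells, without a gap between their ranges in either state.

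Among the 4 ligands, HBEGF, a membrane-bound growth factor that binds EGFR and ERBB4, was the only one above 2 FPKM. Its row, ENSSSCG00000014362, lies on the minus strand of chromosome 2 at 148046706 to 148058378. HBEGF was at 15.7 and 13.6 FPKM in differentiated females and 7.16 and 12.2 FPKM in differentiated males, against 10.6 and 6.17 FPKM in undifferentiated females and 14.45 and 9.87 FPKM in undifferentiated males. The states overlapped, with a differentiated mean of 12.2 ± 3.63 FPKM and an undifferentiated mean of 10.3 ± 3.39 FPKM (SD, n = 4 each). Its log2 difference was 0.23 ± 0.239 (SE), made of 0.78 in females and -0.32 in males. That difference was 0.44 under median-ratio scaling, 0.40 under quantile normalization and 0.06 to 0.40 when 1 library was left out. The low end came without differentiated male replicate 2 or undifferentiated female replicate 2, and the high end without differentiated male replicate 1 or undifferentiated female replicate 1.

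The other ligands were close to or at the lower end of the measurement. NRG1, the ligand of ERBB3 and ERBB4 that motor axons supply to muscle (ENSSSCG00000015839, minus strand of chromosome 15, 60061821 to 60150637), was at 0.332, 0, 0.840 and 1.08 FPKM in differentiated libraries, in the order female 1 and 2 and male 1 and 2, and at 0.314, 0, 0 and 0 FPKM in undifferentiated ones. AREG, amphiregulin, was at 0, 0.0959, 0.504 and 0 FPKM in differentiated libraries, against 1.86, 0.375, 0.430 and 0.711 FPKM in undifferentiated ones. Both overlapped between the states, AREG through differentiated male replicate 1 alone. EREG, epiregulin, was listed at 0 in all 8 libraries. EREG (ENSSSCG00000008962) lies on chromosome 8 of Sscrofa10.2 at 74515115 to 74519617 and AREG (ENSSSCG00000008963) beside it at 74568826 to 74579007, both on the plus strand. A value of 0 in this table can also be a failed estimate, and RNF41, a ubiquitin ligase for ERBB3, was likewise listed at 0 in all libraries.

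Over the 8 members, 3 had all differentiated libraries above all undifferentiated ones, 1 had them all below, and 4 overlapped or were listed at 0. Of all tested genes, 50.0% passed the limma test in either direction, 17.1% had all differentiated libraries above and 30.2% had them all below. The members were picked with this contrast in view, so their count carries no weight against those shares. NRG1, EREG and AREG did not reach the mean of 1 FPKM required for testing, and the other 5 members did. ERBB3, with an undifferentiated mean of 0.957 FPKM, reached it only through its differentiated libraries, where it was picked for being high.

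The ERBB3 row needs a caution about its place in the genome. It carries the identifier ENSSSCG00000020725 and runs from 22968087 to 23092644 on the plus strand of chromosome 5 (Sscrofa10.2), 125 kb that hold 7 other rows of the table, 3 of them on the same strand. In the RefSeq table for Sscrofa11.1, a later assembly, no other gene overlaps ERBB3. Which reads the authors' software assigned to the row, and whether strand was used, is not given in the sources used here. Of the rows inside it, ESYT1, ANKRD52 and SLC39A5 are described as its nearest symbols. ESYT1, a lipid transfer protein of membrane contacts, was at 31.8 ± 0.293 FPKM in differentiated and 52.6 ± 3.44 FPKM in undifferentiated libraries and fell (SD, n = 4 each; log2 -0.705, limma adjusted p = 6.77e-04). ANKRD52, a phosphatase subunit, was at 15.4 ± 1.40 FPKM in differentiated and 21.2 ± 3.65 FPKM in undifferentiated libraries and fell (SD, n = 4 each; log2 -0.43, limma adjusted p = 0.0288). SLC39A5, a zinc carrier, was at most 0.582 FPKM in differentiated and 0.609 FPKM in undifferentiated libraries. NABP2, a DNA-binding protein of repair named here after its values were seen, averaged 9.38 FPKM in differentiated and 8.06 FPKM in undifferentiated libraries, with overlap. The highest row inside the ERBB3 row has no symbol and lies on the minus strand, 115.1 to 117.5 kb from the start. It averaged 112.6 FPKM in differentiated and 148.9 FPKM in undifferentiated libraries, above ERBB3 in both states, and was likewise picked after its values were seen.

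Upstream of the ERBB3 row on Sscrofa10.2, the nearest named genes were CDK2, SUOX and PA2G4. The order differs in RefSeq for Sscrofa11.1, where PA2G4 is directly next to ERBB3 and ESYT1 lies further on the same side. CDK2, a kinase of the cell cycle, was at 8.32 ± 1.73 FPKM in differentiated and 15.7 ± 6.67 FPKM in undifferentiated libraries and was not called (SD, n = 4 each; limma adjusted p = 0.092). SUOX, sulfite oxidase, was at most 0.695 FPKM in differentiated and 1.17 FPKM in undifferentiated libraries. PA2G4, a protein that binds ERBB3, was at 48.0 ± 3.64 FPKM in differentiated and 79.0 ± 5.54 FPKM in undifferentiated libraries and fell (SD, n = 4 each; log2 -0.71, limma adjusted p = 0.00171). All 6 symbols chosen by nearness had lower means in differentiated cells, where the median log2 difference over all tested genes was -0.18. ESYT1, ANKRD52 and PA2G4 fell, beside 31.9% of all tested genes, while CDK2, SUOX and SLC39A5 overlapped between the states. Inside the ERBB3 row, NABP2 and an unnamed row on the same strand had higher means in differentiated cells, with overlap. That unnamed row, on the plus strand like ERBB3, averaged 5.17 FPKM in differentiated and 4.21 FPKM in undifferentiated libraries. A share of other transcripts in that row was not tested.

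**Figure D3:**
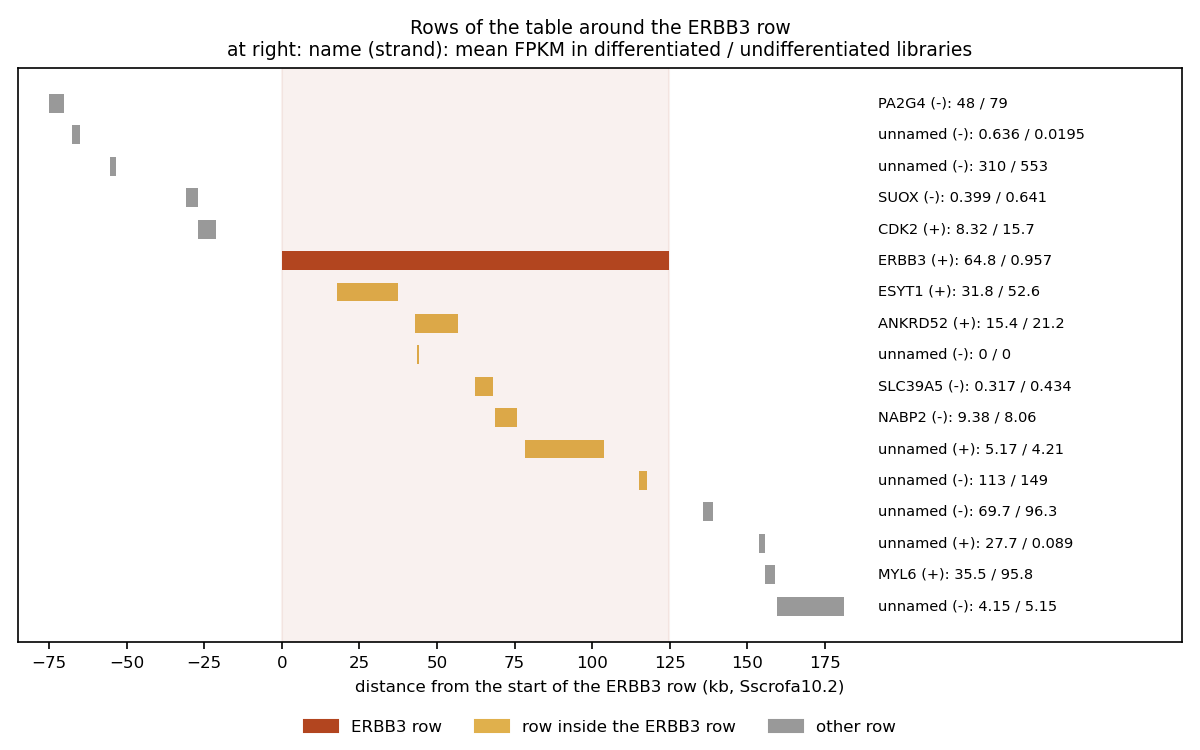
Rows of the deposited table around the ERBB3 row, drawn by distance in kb from its start, with the mean FPKM in differentiated and then undifferentiated libraries printed beside each. The ERBB3 row spans 125 kb and contains 7 other rows, none of which shares its difference of 64.8 against 0.957 FPKM.

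ERBB3 is also a marker of Schwann cells and of many epithelia, so markers of those cells were read beside it. The 7 Schwann cell markers in the table summed to 2.98 to 4.26 FPKM in differentiated and 6.87 to 7.83 FPKM in undifferentiated libraries, lower where ERBB3 was high. S100B carried most of the undifferentiated sum, with means of 2.04 FPKM in differentiated and 5.02 FPKM in undifferentiated libraries. SOX10, the defining factor of that lineage, was at most 0.157 FPKM in differentiated libraries. The 7 epithelial markers summed to 21.8 to 36.8 FPKM in differentiated and 0 to 0.4 FPKM in undifferentiated libraries. Nearly all of that sum was CDH1, E-cadherin, at 20.9 to 36.3 FPKM in differentiated libraries and at most 0.249 FPKM in undifferentiated ones, and the keratins KRT5, KRT8, KRT14, KRT18 and KRT19 were at most 0.228 FPKM in every library. The 7 fibroblast markers summed to 432 to 1133 FPKM in differentiated and 107 to 321 FPKM in undifferentiated libraries, with 1133 FPKM in the differentiated library that stood apart and at most 816 FPKM in the other differentiated ones. COL1A1 (means of 406 FPKM differentiated and 73.5 FPKM undifferentiated, with overlap) and COL3A1 (290 FPKM and 101 FPKM) carried most of both sums. Of 6 tested fibroblast markers 3 rose, COL1A1, COL3A1 and POSTN, beside 18.0% of all tested genes. POSTN passed the filter only through its differentiated libraries. PDGFRA, DCN and LUM were not called, and TCF21 did not reach the mean for testing. The 8 markers of smooth muscle and pericytes summed to 1204 to 1377 FPKM in differentiated and 38.7 to 94.1 FPKM in undifferentiated libraries. ACTA2, smooth muscle actin, carried most of the differentiated sum, with a mean of 1091 FPKM in differentiated and 17.9 FPKM in undifferentiated libraries. All 5 tested genes of this list rose, beside 18.0% of all tested genes: ACTA2, ABCC9, NOTCH3, CSPG4 and PDGFRB. ABCC9 averaged 65.4 FPKM in differentiated and 2.38 FPKM in undifferentiated libraries, and NOTCH3 117 FPKM and 34.3 FPKM. CSPG4 passed the filter only through its differentiated libraries, and PDGFRB overlapped between the states. MYH11, the myosin of smooth muscle, was at most 0.0737 FPKM in differentiated and 0.0931 FPKM in undifferentiated libraries. RGS5 and KCNJ8, markers of pericytes, overlapped between the states. MYH11, RGS5 and KCNJ8 did not reach the mean for testing. The 10 immune markers summed to 4.36 to 6.57 FPKM in differentiated and 12.3 to 17.1 FPKM in undifferentiated libraries. CD14 carried most of the undifferentiated sum, at 11.5 to 15.2 FPKM, against 1.74 to 2.46 FPKM in differentiated libraries. Of the immune markers, CD14 alone had all differentiated libraries below. CD3E alone had them all above, with means of 1.20 FPKM in differentiated and 0.0622 FPKM in undifferentiated libraries. The 5 endothelial markers summed to 2.56 to 7.53 FPKM in differentiated and 2.60 to 6.31 FPKM in undifferentiated libraries. The 3 adipocyte markers summed to 2.47 to 5.29 FPKM in differentiated and 2.55 to 5.19 FPKM in undifferentiated libraries. The part of epithelial cells, fibroblasts, pericytes and smooth muscle cells in the receptor levels was not tested.

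The genes with the profile most like that of ERBB3 were sought among 10140 other symbols by the root mean square distance of log2(FPKM + 1) over the 8 libraries, after the mean of each gene was removed. PDE4DIP, an anchor of phosphodiesterase, was nearest at 0.184, with 44.3 FPKM in differentiated and 0.144 FPKM in undifferentiated libraries. INPP4B, a lipid phosphatase of the PI3K pathway, followed at 0.200, with 183 FPKM in differentiated and 5.28 FPKM in undifferentiated libraries. HFE2, hemojuvelin, a BMP co-receptor of muscle and liver, was at 0.205, with 46.9 FPKM in differentiated and 0.376 FPKM in undifferentiated libraries. CDH1 was at 0.237. The genes nearest to EGFR were AKR7A2 at 0.119, USP25 at 0.127, PDE5A at 0.129, PAM at 0.132 and RFX5 at 0.134, and all 5 were lower in differentiated cells. The 8 points of a profile share the gap between the 2 states, and likeness says nothing of a shared function.

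The comparison of the sexes was not used in choosing the members and could be tested. ERBB2, ERBB3 and ERBB4 were each somewhat higher in females and EGFR and HBEGF were about level when averaged over the states, but none of the 5 tested members passed after adjustment over all genes. ERBB4 averaged 22.2 FPKM in differentiated females and 14.8 FPKM in differentiated males, and 4.4 FPKM in undifferentiated females and 2.75 FPKM in undifferentiated males. Both female libraries lay above both male ones in each state. The female minus male difference over both states was 0.52 ± 0.161 (log2, SE; limma adjusted p = 0.461). For ERBB2 it was 0.32 ± 0.0944 (SE; limma adjusted p = 0.447) and for ERBB3 0.28 ± 0.114 (SE; limma adjusted p = 0.509). The ERBB3 difference was 0.11 ± 0.161 (log2, SE) in differentiated cells, with means of 67.3 FPKM in females and 62.3 FPKM in males. In undifferentiated cells it was 0.46 ± 0.161 (log2, SE), at the low means of 1.27 FPKM in females and 0.644 FPKM in males. The 3 members with an unadjusted p under 0.05 stand beside 9.73% of all tested genes with such a p, and 11 genes, 0.0849%, were called between the sexes.

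ERBB2 averaged 54.3 FPKM in differentiated females and 38.5 FPKM in differentiated males, a log2 difference of 0.48 ± 0.134 (SE; limma adjusted p = 0.317), and 13.7 FPKM in undifferentiated females and 12.3 FPKM in undifferentiated males, a log2 difference of 0.15 ± 0.134 (SE; limma adjusted p = 1). No member was called within either state, where 0.0463% of tested genes were called in differentiated and 0.0926% in undifferentiated cells. These contrasts within a state were added after the values were seen. The state difference itself was not shown to differ between the sexes for any of the 5 tested members, with 0 called and 0 at an unadjusted p under 0.05 in limma, beside 0.0231% of all genes called. HBEGF had the widest such gap, 1.10 ± 0.479 (log2, SE; limma adjusted p = 0.808), with means of 14.6 FPKM in differentiated and 8.36 FPKM in undifferentiated females, and of 9.68 FPKM in differentiated and 12.2 FPKM in undifferentiated males.

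**Figure D4:**
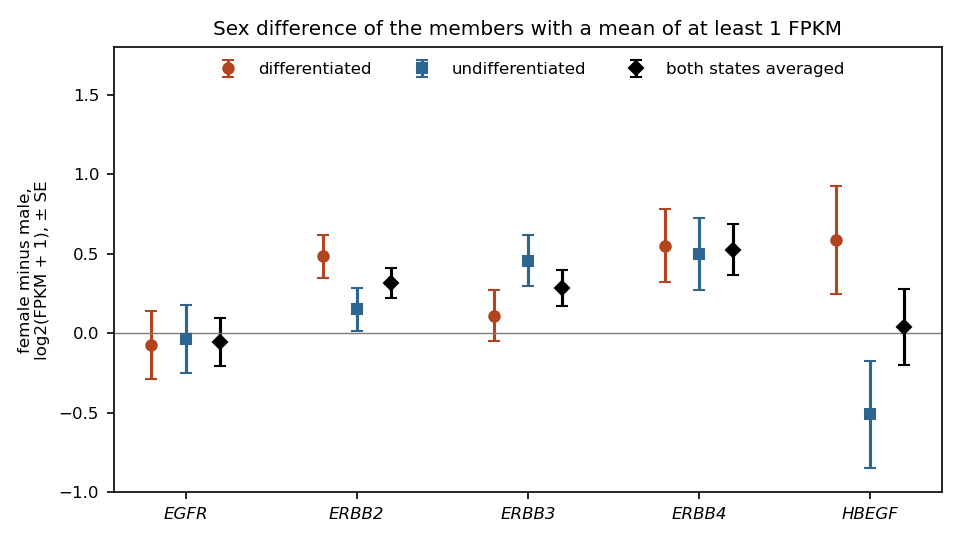
Female minus male difference of log2(FPKM + 1) for the 5 members with a mean of at least 1 FPKM, in differentiated libraries, in undifferentiated libraries and averaged over both, with bars of 1 SE from the limma fit. The points of ERBB2, ERBB3 and ERBB4 lie above 0 in all 3 contrasts, and the adjusted p of the averaged contrast is 0.447 for ERBB2, 0.509 for ERBB3 and 0.461 for ERBB4.

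Genes that act around the receptors, none of them members, were tested between the states. Their lists were chosen with earlier results of these data known, so the counts and p-values are no independent support. In 6 lists with 102 genes, 78 were tested, and 14 rose and 36 fell in differentiated cells, which is 17.9% and 46.2%. Among the rises, EGF, GAB2 and MUC1 passed the filter only through their differentiated libraries, and the counts over all genes used the same filter. Of all 12963 tested genes 18.0% rose and 31.9% fell, and the median log2 difference was -0.40 in the lists and -0.18 over all genes. The list of ERK output genes held 15 of the 36 falls, and without it 23.0% of 61 genes rose and 34.4% fell. Median-ratio scaling of the libraries raised the median of all genes by 0.201 and gave 19 rises and 31 falls in the lists, and 3220 rises and 2920 falls over all genes. Quantile normalization raised that median by 0.11 and gave 17 rises and 34 falls in the lists, and 2699 rises and 3302 falls over all genes.

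Of the 7 other ERBB ligands, 6 were in the table and 2 were tested. EGF, the founding ligand of EGFR, was at 3.64 and 3.74 FPKM in differentiated females and 3.71 and 3.18 FPKM in differentiated males against 0 in each undifferentiated library, and it rose (limma adjusted p = 3.22e-04). It reached the threshold for testing only through its differentiated libraries. A shorter row with the same symbol on a scaffold was at 1.42, 4.645, 2.11 and 0.794 FPKM in differentiated libraries and at 0 in undifferentiated ones. NRG4, a ligand of ERBB4, was at 2.84, 0, 0 and 0 FPKM in differentiated libraries, against 2.85, 0, 6.52 and 14.7 FPKM in undifferentiated ones, and was not called (log2 -1.72, limma adjusted p = 0.0598). It reached the mean for testing only through its undifferentiated libraries. Its adjusted p was 0.0101 to 0.169 over 14 alternatives, and it was under 0.05 with a block by sex and replicate number (0.0101), without short rows (0.0419), without differentiated female replicate 1 (0.0357) and without undifferentiated female replicate 2 (0.0363). The other ligands did not reach the mean for testing. BTC, betacellulin, reached 2.03 FPKM in 1 differentiated library and 1.47 FPKM in 1 undifferentiated library, NRG3 was at most 0.508 FPKM, NRG2 was at 1.29 FPKM in 1 undifferentiated library and at 0 elsewhere, and TGFA was listed at 0 in all. EPGN was not analysed here.

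Of the 10 tested genes for release of ligands from the membrane, 1 rose, 4 fell and 5 were not called, with a median log2 difference of -0.42. That is 10% and 40%, beside 18.0% and 31.9% of all tested genes. The metalloproteases ADAM15 (2.67 ± 0.320 FPKM differentiated, 14.2 ± 2.50 FPKM undifferentiated, log2 -2.04, limma adjusted p = 2.41e-04), ADAM19 (33.2 ± 6.93 FPKM differentiated, 62.2 ± 8.75 FPKM undifferentiated, log2 -0.90, adjusted p = 0.00785) and ADAM10 (28.3 ± 7.56 FPKM differentiated, 52.1 ± 2.83 FPKM undifferentiated, log2 -0.89, adjusted p = 0.00408) fell (SD, n = 4 each). ADAM17, the main sheddase of amphiregulin and HB-EGF, named here after its value was seen, also fell (16.5 ± 1.40 FPKM differentiated, 28.6 ± 1.25 FPKM undifferentiated, SD, n = 4 each, limma adjusted p = 9.65e-04). TIMP3, an inhibitor of these proteases, rose to 6.57 ± 1.01 FPKM in differentiated libraries, against 2.32 ± 0.938 FPKM in undifferentiated ones (SD, n = 4 each, log2 1.23, limma adjusted p = 0.00707).

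Of 23 tested adaptors and effectors, 7 rose, 8 fell and 8 were not called, and their median log2 difference was 0.02. The rises were 30.4% and the falls 34.8%, beside 18.0% and 31.9% of all tested genes. The scaffold GAB2 had the largest rise, to 5.55 ± 0.612 FPKM in differentiated libraries against 0.837 ± 0.388 FPKM in undifferentiated ones (SD, n = 4 each, log2 1.85, limma adjusted p = 4.91e-04), and it too passed the filter only through its differentiated libraries. The catalytic subunits of PI3K split: PIK3CA rose (28.1 ± 4.51 FPKM differentiated, 15.0 ± 0.615 FPKM undifferentiated, log2 0.85, limma adjusted p = 7.27e-04), while PIK3CB fell (1.44 ± 0.324 FPKM differentiated, 5.37 ± 0.982 FPKM undifferentiated, log2 -1.38, adjusted p = 8.99e-04). The adaptor GRB2, which links receptors to RAS, rose (log2 0.74, limma adjusted p = 0.00284). The kinase SRC (log2 -1.08, limma adjusted p = 0.00455) and the PI3K regulatory subunit PIK3R2 (log2 -0.92, adjusted p = 0.00157) fell. Without differentiated female replicate 1, differentiated female replicate 2 or undifferentiated male replicate 1, 4 of these genes rose instead of 7.

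Of 14 tested genes that restrain or degrade the receptors, 1 rose, 3 fell and 10 were not called, with a median log2 difference of -0.06. Both shares, 7.14% and 21.4%, were below those of all tested genes, 18.0% and 31.9%. The ubiquitin ligases CBL (7.41 ± 0.513 FPKM differentiated, 13.5 ± 1.72 FPKM undifferentiated, log2 -0.78, limma adjusted p = 0.00305) and NEDD4 (8.71 ± 3.43 FPKM differentiated, 23.3 ± 3.56 FPKM undifferentiated, log2 -1.38, adjusted p = 0.00684) fell (SD, n = 4 each). The phosphatase PTPN12 fell as well (log2 -1.20, limma adjusted p = 0.00116). PTPRK, a receptor phosphatase that acts on EGFR, rose to 57.1 ± 6.15 FPKM in differentiated libraries, against 21.5 ± 1.90 FPKM in undifferentiated ones (SD, n = 4 each, log2 1.36, limma adjusted p = 3.80e-04). The count of rises was 3 under median-ratio scaling and under quantile normalization, and 2 without undifferentiated male replicate 1 or with the filter at 5 FPKM.

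Of 12 tested partners and transport proteins, 4 rose, 6 fell and 2 were not called, with a median log2 difference of -0.50. These shares were 33.3% and 50%, beside 18.0% and 31.9% of all tested genes. CD44, a hyaluronan receptor that can hold HB-EGF at the surface, fell to 59.0 ± 17.6 FPKM in differentiated libraries, against 332 ± 47.2 FPKM in undifferentiated ones (SD, n = 4 each, log2 -2.51, limma adjusted p = 4.00e-04). SH3KBP1, an adaptor of CBL in receptor uptake (log2 -1.37, limma adjusted p = 6.16e-04), and HSP90AA1, a chaperone of ERBB2 (log2 -0.84, adjusted p = 9.09e-04), also fell. EPS15, an endocytic substrate of EGFR, rose to 111 ± 3.69 FPKM in differentiated libraries, against 57.5 ± 5.14 FPKM in undifferentiated ones (SD, n = 4 each, log2 0.94, limma adjusted p = 2.40e-04). TSG101, which sorts receptors to the lysosome, rose (log2 1.38, limma adjusted p = 0.0141), and the call was lost without differentiated female replicate 1 (limma adjusted p = 0.0513) or undifferentiated male replicate 1 (0.0535), with a range of 0.00262 to 0.0535 over 15 alternatives. MUC1, a mucin that binds ERBB receptors, rose (log2 1.46, limma adjusted p = 0.0212), and its adjusted p was 0.00939 to 0.0637 over 14 alternatives. MUC1 averaged 2.52 FPKM in differentiated libraries and was at 0.101, 0, 0 and 0.770 FPKM in undifferentiated ones, so that it entered the test only through the differentiated libraries. That call ended in 6 of them, namely quantile normalization (0.0555), the block (0.0586), and without differentiated female replicate 2 (0.0637), undifferentiated female replicate 1 (0.0548), undifferentiated female replicate 2 (0.0597) or undifferentiated male replicate 1 (0.0623). Without undifferentiated male replicate 1, 2 genes of the list rose instead of 4.

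The genes that ERK signalling is known to induce or that feed back on it were mostly lower in differentiated cells. Of 17 tested, 15 fell, 0 rose and 2 were not called (SPRY1 and SPRED3), with a median log2 difference of -1.14, beside 31.9% of all tested genes that fell. The ERK phosphatase DUSP6 fell to 3.57 ± 2.28 FPKM in differentiated libraries, against 50.6 ± 6.13 FPKM in undifferentiated ones (SD, n = 4 each, log2 -3.62, limma adjusted p = 5.76e-04). SPRY4, an inhibitor of receptor signalling, fell to 6.86 ± 0.805 FPKM in differentiated libraries, against 74.3 ± 11.8 FPKM in undifferentiated ones (SD, n = 4 each, log2 -3.25, limma adjusted p = 2.59e-05). DUSP5 had the largest fall (log2 -3.88, limma adjusted p = 5.30e-05). DUSP6 was at 6.79 FPKM in the differentiated library that stood apart and at most 3.32 FPKM in the other 3.

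**Figure D5:**
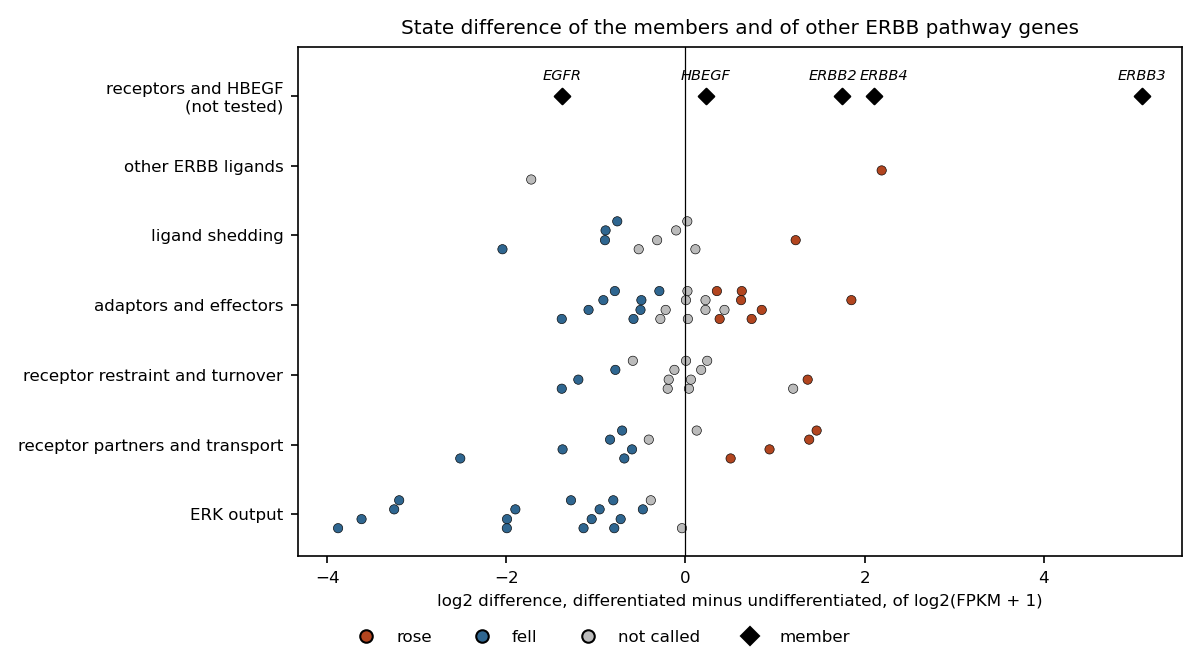
Difference of log2(FPKM + 1) between differentiated and undifferentiated libraries for the 5 members with a mean of at least 1 FPKM (black diamonds, not tested) and for the tested genes of 6 lists (circles, 1 gene each), with colour for the limma call. ERBB3 at 5.09 lies right of every other gene shown, and the ERK output genes lie left of 0.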

How the data were processed

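The authors deposited 1 table of FPKM per gene and library. Per the submitters' processing notes the tools were Cufflinks 2.2.1, TopHat2 2.0.12.1 and cutadapt 1.6, with the build Sscrofa10.2. Tool settings, annotation release and use of strand are not given in the sources used here. FPKM were not turned back into reads, so no count test was run. Of 25285 rows, 16274 carried a symbol, 1841 were named from an Ensembl identifier table (which held 11791 of the identifiers) and 7170 stayed unnamed. For a repeated symbol the row with the highest mean was used.

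Relative depth was taken from 11596 low genes, with the commonest ratio of a pair of libraries read as 1 fragment against 1. The median misfit was 0.0187 and the largest 0.941 on the log2 scale. Values were analysed as log2(FPKM + 1), for the 12963 genes that averaged 1 FPKM or more, with limma 3.58.1 in R 4.3.3 (1 mean per group, trended eBayes, 4 residual degrees of freedom), and two-sided p-values got the Benjamini-Hochberg adjustment across those genes. Called means an adjusted p under 0.05, and "rose" and "fell" are used of called genes. Nothing says that replicates are separate animals, so p-values reflect the scatter of libraries, which may be technical. The fit was tested on simulated data, but the outcome is not given here and lends the results no support.

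The members and lists were chosen with earlier results of these data known. Named genes were the members, all other ligands, the 3 largest called rises and falls of each list, the 5 nearest profiles of ERBB3 and EGFR and the 3 nearest symbols on each side of ERBB3. One gene that this rule names is not reported here. The settings varied were the pseudocount (0.1), no filter, a filter at 5 FPKM, median-ratio scaling, quantile normalization, a replicate block, each library left out and, chosen after seeing the data, rows under 300 bp left out and the sexes compared within each state.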

Additional observations from a re-analysis of the deposited data

Results flagged for a closer look

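NRG1 was at 0.314 FPKM in undifferentiated female replicate 1 and listed at 0 in the other 3 undifferentiated libraries, which set that library apart by Dixon's criterion for 4 samples (0.829). With 3 of 4 values at 0, any value above 0 in the remaining library meets the criterion, so that it says nothing of how unusual this library is, and the chance rate of about 1 in 20 groups does not apply. The criterion was applied to 14 groups of values of the members.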

How the results depend on the processing

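The log2 state difference of ERBB3, 5.09, was 6.02 with a pseudocount of 0.1 and 5.25 under median-ratio scaling, and 5.01 to 5.18 when 1 library was left out. Its percent of receptor FPKM differed by 39.2 to 41.1 points when 1 library was left out. The number of members with all differentiated libraries below was 1 to 2 when 1 library was left out, because AREG joined EGFR without differentiated male replicate 1. The number with all of them above was 3 to 4, because NRG1 joined without differentiated female replicate 2. Genes of the pathway lists that rose numbered 10 to 15, or 19 under median-ratio scaling and 17 under quantile normalization, and those that fell 31 to 38. No member was called by sex or for a state difference by sex under any alternative run.

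The numbers of the replicates were not shown to pair libraries, since the correlation of deviations of same-numbered libraries was 0.0684 in females and -0.0264 in males. With the replicate block by sex and number, 11 pathway genes rose and 36 fell. The block cannot be used for the difference between the sexes. Depth in reads is unknown, so values near 0 (NRG1, AREG, EREG and most ligands) have no stated counting error. The differentiated libraries were the shallower ones only by the estimate from low values. That estimate nearly met between the states, at 0.74 in differentiated male replicate 1 and 0.745 in undifferentiated male replicate 2, and had a misfit of up to 0.941 (log2).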

Other observations

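A row without a symbol, ENSSSCG00000028808, lies 153.8 kb from the start of the ERBB3 row and outside it, next to MYL6. It was at 27.66 and 32.82 FPKM in differentiated females and 18.91 and 31.47 FPKM in differentiated males, against 0.356 FPKM in undifferentiated male replicate 2 and 0 in the other 3 undifferentiated libraries. MYL6 itself, a myosin light chain of non-muscle and smooth muscle cells, averaged 35.55 FPKM in differentiated and 95.8 FPKM in undifferentiated libraries. The unnamed row was the only one in the stretch drawn around ERBB3, other than ERBB3 itself, with a mean above 1 FPKM in differentiated and below 1 FPKM in undifferentiated libraries. These rows were picked after their values were seen.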
